A study of Rattus norvegicus with 6 samples.

Results

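A set of 10 genes that mark or build the macrophage lineage were examined in ovaries of neonatal rats after an immune challenge with lipopolysaccharide (LPS), a component of the outer wall of Gram-negative bacteria. The genes are Csf1r, Cd68, Aif1, Cd163, Mrc1, Csf1, Lyz2, Spi1, Tyrobp and Fcer1g, chosen by name from a list of macrophage genes, and every probe on the array whose RefSeq accession carries one of these symbols was taken. All 10 of the 10 listed genes had a probe, out of 15154 genes named on the array, and together they had 13 of the 30367 probes measured. Csf1r, Fcer1g and Aif1 had more than 1 probe, and the other 7 genes had 1 each. Female Wistar rat pups received 0.05 mg/kg LPS of Salmonella enteritidis or saline intraperitoneally on postnatal days (PND) 3 and 5, and ovaries were taken on PND 7. Single-colour Agilent arrays measured 3 RNA samples from the LPS group and 3 from the saline group, which served as the control. The study took ovaries for arrays from 5 animals and 2 litters per treatment, and which animals stand behind each array is not given in the sources used here, so that the p-values measure the spread between these samples and no more.

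The values are log2 signals from which the 75th percentile of the same array's probes was subtracted, so that 0 is the brightness of a fairly bright probe and 1 log2 unit is a 2-fold change. The brightness of different probes does not rank their transcripts, and only the change of a probe from array to array is read as a result. Where the brightest probe of a list is named, this describes its signal alone. The share of spots well above background, by the flag of the scanner software, was 70.4%, 66.3% and 69.9% on the saline arrays and 76.0%, 72.4% and 74.1% on the LPS arrays, and no spot was saturated. Of the 10 genes, 8 were well above background throughout, that is on each of the 6 arrays. Cd163 and Mrc1 were so on 5, with saline replicate 1 the exception for both.

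Ovarian identity was checked first. All 7 measured oocyte markers were well above background throughout, among them the zona pellucida genes Zp3 and Zp2, and so were 6 of 7 granulosa cell markers, among them Inha and Amh. Their summed signals, in multiples of the array's 75th percentile, were 23.9, 21.1 and 35.1 for the oocyte markers on saline replicates 1 to 3 and 17.7, 48.7 and 40.1 on the LPS arrays, and 32.9, 35.5 and 57.1 and 17.4, 67.6 and 45.7 for the granulosa cell markers. LPS replicate 1 was thus the lowest array for both. Saline replicates 2 and 3 also carried transcripts of the adrenal gland. The summed signal of the 7 adrenal cortex markers was 1.35 on saline replicate 1, 165 on saline replicate 2 and 221 on saline replicate 3, and 1.67, 1.01 and 0.805 on the LPS arrays. Cyp21a1, the steroid 21-hydroxylase, had the brightest probe of them on every array. The 6 measured adrenal medulla markers summed to 5.87, 83.5 and 54.5 on the saline arrays and 5.37, 3.57 and 3.08 on the LPS arrays, where the brightest probe was that of Pnmt, which makes adrenaline, on saline replicates 2 and 3 and that of Th, the first enzyme of catecholamine synthesis, on the others. The defining cortex genes Cyp11b1, Mc2r and Akr1b7 and the medulla genes Chga and Chgb were not well above background on saline replicate 1 or on any LPS array. Adrenal tissue holds macrophages of its own, and its part in the values of the saline group was not tested. The members are therefore also given against saline replicate 1 alone, as are the other named genes called at an unadjusted p under 0.05 whose difference this changed by more than 1.5 times. Cd163, Mrc1 and Nkg7 are not, since they were not well above background on that array. The arrays shared 1 slide and 1 scan. Row 2 of the slide held all saline arrays and LPS replicate 1, and row 1 held LPS replicates 2 and 3, so that a comparison within row 2 sets 1 LPS array, the one low in oocyte and granulosa cell markers, against 3 saline arrays, and the part of that in the values within row 2 was not tested.

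Macrophages are seeded into the ovary before birth and clear dying germ cells and other debris there, and they later take part in follicle growth, ovulation and the regression of corpora lutea. Their survival depends on signalling through the receptor Csf1r, which binds the growth factors Csf1 and Il34, and their identity depends on PU.1, the transcription factor encoded by Spi1. Activating receptors on the surface pair with the adaptors Tyrobp and Fcer1g to signal, while Cd68, Cd163, Mrc1 and Lyz2 serve the uptake and breakdown of what the cell takes in.

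With all 6 arrays, the list as a whole differed little between the treatments. The median difference between LPS and saline over the 10 genes was 0.09 on the log2 scale, where the median over all probes was -0.04 and that over the 18093 probes well above background throughout was 0.02. Positive differences were found for 8 of the 10 genes and negative ones for Cd68 and Cd163, beside 44.8% positive over all probes and 54.0% over those well above background throughout. In limma, 0 of 10 genes had an adjusted p under 0.05, as did 0% of all probes, with a lowest adjusted p of 0.271 among the members. At an unadjusted p under 0.05, 2 of 10 genes, Csf1r and Mrc1, were higher in LPS, beside 2.46% of all probes and 1.85% of those well above background throughout, and 0 were lower, beside 14.1% and 2.39%. The further criterion of a 2-fold change left Mrc1 alone, 1 of 10 beside 0.613% of all probes higher, and 0 of 10 beside 1.08% lower. Mrc1 was not well above background on saline replicate 1. Without that array its difference was 0.90, which is under 2-fold, with an unadjusted p over 0.05. The groups did not overlap for Csf1r, Fcer1g and Mrc1, 3 of 10 with every LPS array above every saline array, beside 5.02% of all probes and 5.69% of those well above background throughout. Of the 8 members well above background throughout, 1 was higher at an unadjusted p under 0.05 and 2 had every LPS array above every saline array. None of the 10 lay the other way, beside 18.4% of all probes and 5.75% of those well above background throughout. Of the 5596 probes in that 18.4%, 4389 were well above background on no array, which is 58.0% of the 7568 probes of that kind, to which none of the 10 genes belongs. Within slide row 2 the median over the 10 genes was 0.33, where that over all probes was 0.03. The median over the 10 genes was 0.24 without saline replicate 2, 0.23 without LPS replicate 3 and 0.002 without saline replicate 3. Over all probes it was -0.07, 0.03 and -0.07 in these 3 fits.

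**Figure D1:**
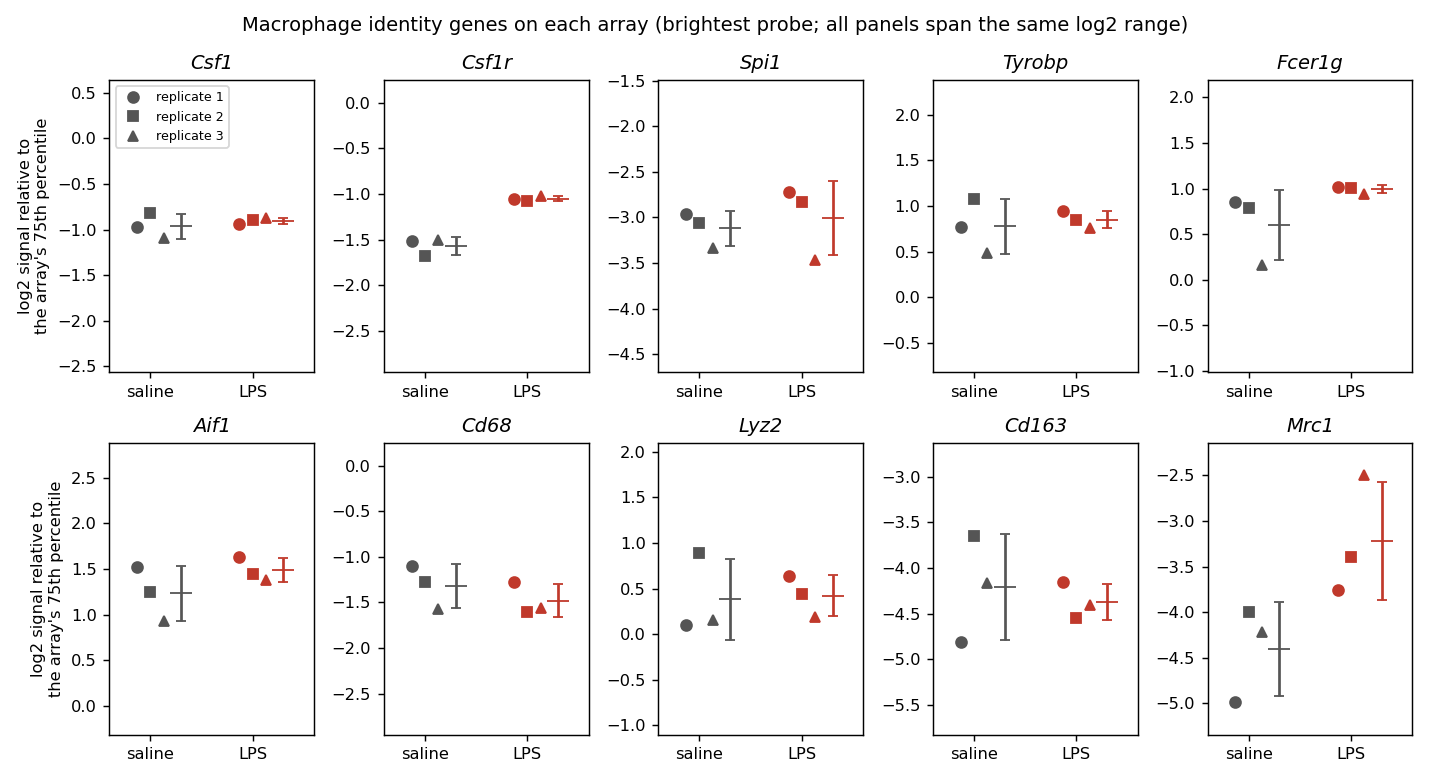
Signal of each of the 10 macrophage identity genes on each array, as log2 relative to the array's 75th percentile (vertical axis, a different level but the same span in each panel), with saline in grey and LPS in red. The symbol gives the replicate number, and the bar is the mean with 1 SD over 3 arrays. Csf1r, Fcer1g and Mrc1 have every LPS array above every saline array, and the other genes overlap.

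The receptor Csf1r was higher in LPS by its brighter probe, while its growth factor Csf1 had overlapping groups. Csf1, the macrophage colony stimulating factor, read -0.97, -0.82 and -1.10 on saline replicates 1 to 3 and -0.94, -0.89 and -0.87 on the LPS replicates. These 6 arrays lay within a narrow band and the LPS values fell inside the saline range. The difference was 0.06 ± 0.16 (SE, n = 3 and 3; 95% confidence interval -0.32 to 0.44; limma adjusted p = 0.963, exact permutation p = 0.6), with 0.03 within slide row 2 and 0.07 against saline replicate 1 alone. Csf1r, the receptor tyrosine kinase for Csf1, read -1.52, -1.68 and -1.51 in saline and -1.06, -1.08 and -1.02 in LPS with its brighter probe. Each LPS array was higher than each saline array, and the LPS arrays were closely grouped, with a mean of -1.05 ± 0.03 (SD, n = 3) against -1.57 ± 0.10 (SD, n = 3). The difference was 0.52 ± 0.15 (SE, n = 3 and 3), a 1.43-fold change with a 95% confidence interval of 0.15 to 0.88 (limma adjusted p = 0.271). A two-sided exact permutation test gave p = 0.1, the smallest that 3 arrays against 3 allow. In RNA from a whole organ, fewer cells of a type and less RNA per cell cannot be told apart, and the same holds for more.

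This Csf1r difference was 0.51 within slide row 2, and by construction the same with the slide row as a block, since row 1 held no saline array. It was 0.46 against saline replicate 1 alone, and in none of these fits was the unadjusted p under 0.05. Background correction moved it more, to 0.33 with normexp and 0.26 without any correction, again with an unadjusted p over 0.05. The second probe of Csf1r, a single spot of the same transcript accession, had overlapping groups. Its values were -1.77, -2.35 and -1.87 in saline and -1.81, -1.97 and -2.05 in LPS. The LPS arrays lay inside the saline range, with a difference of 0.05 ± 0.21 (SE, n = 3 and 3; 95% confidence interval -0.45 to 0.56; limma adjusted p = 0.981). It was 0.19 within slide row 2 and -0.17 against saline replicate 1 alone. The gap between the brighter and the second probe was 0.25, 0.67 and 0.36 in saline and 0.75, 0.89 and 1.03 in LPS, a difference of 0.46 between the treatments (exact permutation p = 0.1). Which stretch of the transcript each probe reads was not examined here. The mean over both probes gave 0.28.

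Among the other colony stimulating factors and their receptors, 6 of 9 listed genes had a probe and 4 were well above background throughout. Of the 6, 1 was higher and 0 were lower at an unadjusted p under 0.05, beside 2.46% and 14.1% of all probes. Kitlg, the ligand of the related receptor Kit and in the ovary a product of granulosa cells, read 0.54, 0.76 and 0.97 in saline and 1.19, 1.41 and 1.37 in LPS. All LPS arrays exceeded all saline arrays, by 0.57 ± 0.18 (SE, n = 3 and 3; limma adjusted p = 0.271), and by 0.43 within slide row 2. The unadjusted p was over 0.05 there, with the slide row as a block, and without saline replicate 1, LPS replicate 2 or LPS replicate 3. Csf2ra, a receptor chain for granulocyte-macrophage colony stimulating factor, lay the other way without overlap, every LPS array being lower, with means of 1.73 ± 0.16 (SD, n = 3) in saline and 1.44 ± 0.15 in LPS (limma adjusted p = 0.529, exact permutation p = 0.1). Il34, the alternative ligand of Csf1r, read -0.42, -0.03 and -0.45 in saline and -0.06, -0.33 and -0.18 in LPS, and is named here after its values were seen. Neither of the known ligands of the receptor thus had groups that stood apart, while Csf3r and Csf2rb, which mark granulocytic and other myeloid cells, were not well above background anywhere.

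Spi1, which encodes PU.1, had overlapping groups. It read -2.97, -3.06 and -3.33 in saline and -2.72, -2.83 and -3.47 in LPS. LPS replicates 1 and 2 were the highest of the 6 arrays and LPS replicate 3 the lowest, so the groups overlapped from end to end. The difference was 0.12 ± 0.25 (SE, n = 3 and 3; 95% confidence interval -0.48 to 0.71; limma adjusted p = 0.945). It was 0.40 within slide row 2 and -0.04 against saline replicate 1 alone. Of 12 further myeloid transcription factors, 10 were well above background throughout. Of these, 1 was higher and 2 were lower at an unadjusted p under 0.05, beside 1.85% and 2.39% of all probes of that kind.

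The factors that were called are not restricted to macrophages. Klf4, a zinc finger factor of monocytes and of many other cells, was -0.71, -1.14 and -1.11 in saline and -0.42, -0.49 and -0.62 in LPS, with no overlap and a difference of 0.48 ± 0.19 (SE, n = 3 and 3; limma adjusted p = 0.287), which was 0.20 against saline replicate 1 alone and 0.29 without background correction. Its unadjusted p was over 0.05 in both, after normexp, within slide row 2, in the row block fit and without any single array but saline replicate 1. Zeb2, a repressor that holds tissue macrophages to their identity, was -1.71, -1.64 and -2.11 in saline and -2.30, -2.76 and -2.77 in LPS. All LPS arrays were below all saline arrays, by a difference of -0.79 ± 0.22 (SE, n = 3 and 3; limma adjusted p = 0.271), which was -0.48 within slide row 2 and -0.49 without background correction, with an unadjusted p over 0.05 within row 2 and in the row block fit. Cebpb, a factor of inflammatory myeloid cells that steroid-producing cells use too, was 2.01, 3.51 and 3.23 in saline and 1.92, 1.53 and 1.55 in LPS. It was high on the saline arrays that carried adrenal transcripts, and the difference of -1.25 ± 0.40 (SE, n = 3 and 3; limma adjusted p = 0.271) was -0.35 against saline replicate 1 alone. Its unadjusted p was over 0.05 there, within slide row 2, in the row block fit, and without saline replicate 2 or 3 or LPS replicate 2. Irf8, which directs monocyte development, was not well above background anywhere.

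Neither adaptor of activating receptors was called at an unadjusted p under 0.05 by its brightest probe with all arrays. Tyrobp, also called DAP12, carries the signal of Trem2 and related receptors, and read 0.76, 1.08 and 0.48 in saline and 0.94, 0.85 and 0.75 in LPS. All LPS arrays lay between the saline extremes. The difference was 0.07 ± 0.20 (SE, n = 3 and 3; 95% confidence interval -0.41 to 0.56; limma adjusted p = 0.966), with 0.17 within slide row 2 and 0.08 against saline replicate 1 alone. Fcer1g, the common gamma chain of the Fc receptors, read 0.86, 0.78 and 0.16 in saline and 1.02, 1.01 and 0.94 in LPS with its brighter probe. The LPS arrays were all higher, but saline replicate 1 fell short of the lowest of them by little, and saline replicate 3 was far below the rest. The difference was 0.39 ± 0.23 (SE, n = 3 and 3; 95% confidence interval -0.15 to 0.93; limma adjusted p = 0.484, exact permutation p = 0.1). It was 0.42 within slide row 2, 0.17 without saline replicate 3, 0.13 against saline replicate 1 alone, and 0.38 without background correction, where the unadjusted p was under 0.05. The second probe of Fcer1g, a single spot, read -1.24, -0.45 and -1.08 in saline and -0.12, -0.22 and -0.34 in LPS. Its groups did not overlap either, and here saline replicate 2 came closest to the LPS arrays. The difference was 0.69 ± 0.24 (SE, n = 3 and 3; limma adjusted p = 0.271), with 0.80 within slide row 2 and 1.01 against saline replicate 1 alone. Its unadjusted p was under 0.05 with all arrays, and over 0.05 within slide row 2, with the slide row as a block, and without saline replicate 1 or 3 and without LPS replicate 1 or 2, where leaving out each of these 4 arrays gave 0.54, 0.62, 0.64 and 0.69.

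All 20 receptors and kinases listed as partners of these adaptors had a probe, and 9 were well above background throughout. Of these 9, 2 were higher and 0 were lower at an unadjusted p under 0.05, beside 1.85% and 2.39% of all probes of that kind. Of another 5, well above background nowhere, 2 had fitted values called lower. Of all 7568 probes well above background nowhere, 3753 had an unadjusted p under 0.05 in either direction. Fcgr1a, the high-affinity receptor for IgG, which signals through Fcer1g, read -1.62, -1.63 and -2.16 in saline and -1.30, -1.32 and -1.22 in LPS. Its LPS arrays agreed closely and all exceeded the saline arrays, by 0.52 ± 0.20 (SE, n = 3 and 3; limma adjusted p = 0.286). Trem2, a lipid-sensing receptor of macrophages that signals through Tyrobp, read -2.09, -1.85 and -2.17 in saline and -1.60, -1.57 and -1.63 in LPS. It likewise had no overlap, at 0.44 ± 0.17 (SE, n = 3 and 3; limma adjusted p = 0.283). Within slide row 2 the differences were 0.50 for Fcgr1a and 0.43 for Trem2, and against saline replicate 1 alone they were 0.34 and 0.49. Both calls were lost in these 2 fits, with the slide row as a block, without background correction, without saline replicate 3 and without any single LPS array, and that of Trem2 also without saline replicate 1. Fcgr1a was 0.34 without saline replicate 3 and 0.29 without background correction. Trem1, the receptor of inflammatory monocytes and neutrophils, was not well above background anywhere.

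The general markers of the lineage had overlapping groups. Aif1, the actin-bundling protein known as Iba1, read 1.53, 1.25 and 0.93 in saline and 1.64, 1.45 and 1.38 in LPS with its brighter probe. Saline replicate 1 was inside the LPS range, and saline replicates 2 and 3 were below it. The difference was 0.26 ± 0.21 (SE, n = 3 and 3; limma adjusted p = 0.695) and 0.40 within slide row 2, but -0.04 against saline replicate 1 alone. Its second probe gave -0.14, -0.20 and -1.10 in saline and -0.11, -0.44 and -0.33 in LPS, a difference of 0.19 ± 0.29 (SE, n = 3 and 3; limma adjusted p = 0.901), with 0.37 within slide row 2 and -0.15 against saline replicate 1 alone. Cd68, a glycoprotein of lysosomes and endosomes used to count macrophages in tissue, read -1.10, -1.28 and -1.58 in saline and -1.28, -1.61 and -1.56 in LPS. Replicate 1 was the highest array of either treatment, and the groups overlapped. The difference was -0.16 ± 0.20 (SE, n = 3 and 3; 95% confidence interval -0.64 to 0.31; limma adjusted p = 0.845). It was 0.04 within slide row 2 and -0.38 against saline replicate 1 alone. Lyz2, the lysozyme of macrophages and granulocytes, read 0.10, 0.89 and 0.15 in saline and 0.64, 0.44 and 0.19 in LPS. The highest array was saline replicate 2, and the LPS arrays lay below it and above the other saline arrays. The difference was 0.04 ± 0.27 (SE, n = 3 and 3; limma adjusted p = 0.992), with 0.25 within slide row 2 and 0.32 against saline replicate 1 alone.

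The scavenger receptors Cd163 and Mrc1 were the members not well above background throughout. Cd163, which takes up complexes of haemoglobin and haptoglobin and marks resident macrophages, read -4.81, -3.65 and -4.16 in saline and -4.16, -4.55 and -4.41 in LPS. Saline replicate 1, not well above background, was the lowest array and saline replicate 2 the highest, so that the saline arrays enclosed the LPS arrays. The difference was -0.16 ± 0.31 (SE, n = 3 and 3; limma adjusted p = 0.930), with 0.05 within slide row 2, 0.12 without saline replicate 2 and -0.47 without saline replicate 1. Mrc1, the mannose receptor Cd206 of resident and alternatively activated macrophages, read -4.99, -4.00 and -4.22 in saline and -3.76, -3.39 and -2.50 in LPS. All LPS arrays were above all saline arrays, but LPS replicate 3 stood well clear of the other LPS arrays and the signal was dim in saline. Saline replicate 1 was not well above background for Mrc1, so that no exact size can be given with that array included. The difference was 1.19 ± 0.40 (SE, n = 3 and 3), a 2.28-fold change with a 95% confidence interval of 0.23 to 2.14 (limma adjusted p = 0.271, exact permutation p = 0.1). It was 0.83 without LPS replicate 3, and 0.64 within slide row 2, which leaves out LPS replicates 2 and 3. The unadjusted p was over 0.05 without LPS replicate 3, within slide row 2, in the row block fit, and without saline replicate 1, where the difference was 0.90. The size also moved with the background correction, to 0.34 after normexp and 0.18 without correction, with an unadjusted p over 0.05 in both, with quantile normalization and in an analysis of variance of the 2 groups.

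**Figure D2:**
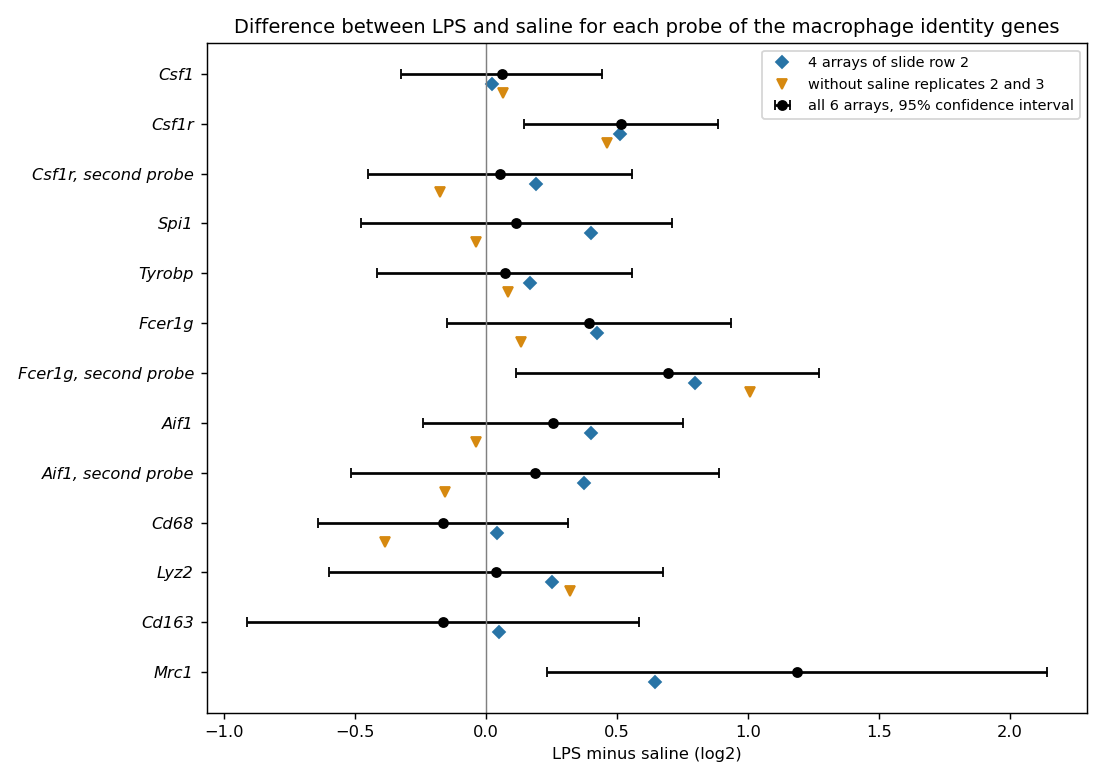
Difference between LPS and saline on the log2 scale (horizontal axis) for each of the 13 probes of the macrophage identity genes, with black points and 95% confidence intervals from limma over all 6 arrays, blue diamonds for the 4 arrays of slide row 2 and orange triangles for the fit without saline replicates 2 and 3, drawn where saline replicate 1 was well above background. The intervals of Csf1r, the second probe of Fcer1g and Mrc1 lie above 0, and those of the other 10 probes include 0.

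Other genes of macrophages and phagocytes were looked at for the same pattern. Of 38 listed, 34 had a probe and 24 were well above background throughout, with a median difference of 0.10 over those 24 and of 0.12 over the 34. At an unadjusted p under 0.05, 1 of the 24 was higher and 0 were lower, beside 1.85% and 2.39% of all probes well above background throughout. That gene was Adgre1, the adhesion receptor known as F4/80, with -2.90, -2.15 and -2.44 in saline and -1.89, -1.71 and -1.46 in LPS. No saline array reached an LPS array, and the difference was 0.81 ± 0.24 (SE, n = 3 and 3; limma adjusted p = 0.271). It was 0.60 within slide row 2, 1.21 against saline replicate 1 alone, and 0.51 and 0.36 with normexp and without background correction. The unadjusted p was over 0.05 within row 2 and in the row block fit. Cyba, a subunit of the phagocyte oxidase found in many cells, had means of 2.93 ± 0.29 (SD, n = 3) in saline and 3.05 ± 0.15 in LPS. Genes for complement C1q, made in quantity by tissue macrophages, gave differences of -0.07 for C1qa, 0.33 for C1qb and 0.34 for C1qc, each with overlapping groups, and are named here after their values were seen. Ptprc, the common leukocyte antigen, was well above background on the 3 LPS arrays only, but its values in the groups overlapped (limma adjusted p = 0.837). Siglec1, Vsig4, Mpeg1 and Ccr2 were not well above background anywhere.

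Cx3cr1, the fractalkine receptor of resident macrophages, followed the replicate number instead of the treatment, and is named for that reason after its values were seen. It read 1.20, -0.61 and -1.02 in saline and 1.83, -0.62 and -1.13 in LPS. Replicate 1 was the high array in each group, as it was for the summed signals of several lists, among them the B cell and kidney markers. The B cell sum came mostly from the probe of Pax5, with 4.24 of 4.37 on saline replicate 1 and 6.97 of 7.12 on LPS replicate 1. The kidney sums were low, at 0.633 and 0.657 on these arrays. The summed signal of the 4 measured oviduct epithelium markers was highest there too. It was 33.2, 12.2 and 15.6 in saline and 33.1, 17.9 and 18.8 in LPS, with replicate 3 above replicate 2, unlike Cx3cr1. Their brightest probe was that of Foxj1, a factor of ciliated cells, with Pax8 among the others. None of the 4 was called at an unadjusted p under 0.05, and their part in the Cx3cr1 values was not tested.

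Markers of the other cells that such ovaries could hold were counted in the same way, at an unadjusted p under 0.05. Of all probes well above background throughout, 1.85% were higher and 2.39% lower at that p, and of all probes 2.46% were higher. Of 9 measured neutrophil markers 3 were well above background throughout and 0 of these were called, with S100a9 at -2.02 ± 0.69 (SD, n = 3) in saline and -1.98 ± 0.15 in LPS and Retnlg at -3.75 ± 0.54 and -3.33 ± 0.69. Of 13 T and NK cell markers 5 were well above background throughout and 0 of these were called, Cd3d among them, while Nkg7, a granule protein well above background on 5 arrays, had a difference of 0.83 ± 0.30 (SE, n = 3 and 3; limma adjusted p = 0.276), which was 0.21 with normexp, 0.09 without background correction and 0.52 without saline replicate 1. Its unadjusted p was over 0.05 with either change of background correction, with quantile normalization, without LPS replicate 1 or 2, within slide row 2, in the row block fit and in an analysis of variance. Among 5 measured B cell markers, the 2 well above background throughout, Pax5 and Cd79b, were not called, nor were the 2 such markers of 6 for dendritic cells, Zbtb46 and Batf3. Mast cell markers gave 1 higher of 5 well above background. That was Cpa3, the carboxypeptidase of mast cell granules, with -3.81, -3.67 and -3.23 in saline and -2.98, -2.71 and -2.25 in LPS. The groups did not overlap, and the difference was 0.93 ± 0.26 (SE, n = 3 and 3; limma adjusted p = 0.271), and it was 0.59 within slide row 2 and 0.43 and 0.26 with normexp and without background correction, with an unadjusted p over 0.05 within row 2, in the row block fit and without background correction, while the mast cell protease Mcpt1 gave 0.22 ± 0.17. Mast cells also use Fcer1g, in the receptor for IgE, and their part in the Fcer1g values given further above was not tested.

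The counts that follow stand beside 1.85% higher and 2.39% lower of all probes well above background throughout, and 14.1% lower of all probes. Endothelial markers gave 1 higher of 5 well above background throughout, Pdpn, a glycoprotein of lymphatic endothelium and of other surfaces, at 0.51 ± 0.18 (SE, n = 3 and 3; limma adjusted p = 0.274). The median over the 5 was -0.11, with 2 of them positive, and Kdr, the brightest probe, read 1.95, 2.51 and 2.44 in saline and 1.57, 1.91 and 1.98 in LPS, a difference of -0.48 ± 0.22 (SE, n = 3 and 3; limma adjusted p = 0.344). For Pdpn it was 0.28 against saline replicate 1 alone, and the call was lost there, without saline replicate 2 or 3 and without LPS replicate 2. Red blood cell markers gave 2 lower of 3, with -1.17 ± 0.45 for the anion exchanger Slc4a1 and -0.85 ± 0.35 for the haem synthesis gene Alas2 (SE, n = 3 and 3). Saline replicate 2 was the highest array for both. Without it the differences were -0.65 and -0.50, and against saline replicate 1 alone they were -0.63 and -0.20. Both calls were lost against that array, that of Slc4a1 also without LPS replicate 2 or 3, and that of Alas2 without any single array but saline replicate 1, with quantile normalization and with the percentile taken over probes well above background throughout. The adrenal lists gave 6 of 7 cortex and 6 of 6 medulla genes lower, including Cyp11b3, Pnmt, Ddc and Th, with -0.46 for Cyp21a1, -0.33 for Cyp11b3, -0.42 for Pnmt, -0.52 for Ddc and -0.68 for Th left against saline replicate 1 alone, where none of these 5 was called. Leaving out any of saline replicates 2 and 3 and LPS replicates 2 and 3 lost the calls of Cyp21a1, Cyp11b3 and Pnmt, and leaving out saline replicate 3 lost that of Ddc. Oocyte and granulosa cell markers gave 0 calls among 7 and 7 measured genes. Stroma and theca markers gave 1 higher of 8, Tcf21, a factor of ovarian stroma, at 1.08 ± 0.24 (SE, n = 3 and 3; limma adjusted p = 0.271), with 0.58 after normexp and 0.39 without background correction, and the brightest probe was that of Col1a1. With the slide row as a block, Tcf21 alone of the named genes outside the members that were called kept an unadjusted p under 0.05, but against saline replicate 1 alone, where its difference was 0.80, it did not. In the analysis of variance the calls of Cebpb, Nkg7, Slc4a1, Alas2 and all 5 named adrenal genes were lost, and without normalization between arrays those of Trem2, Cebpb, Zeb2, Slc4a1 and Alas2. Kidney markers gave 0 calls in the 1 gene well above background throughout, Aqp2, and Lrp2 was so on 5 arrays. Over these 18 lists 0 of 167 genes reached an adjusted p under 0.05 in limma with all arrays. Without saline replicate 1, among the named genes called with all arrays, Cebpb at -1.71, Cyp21a1 at -6.75, Cyp11b3 at -4.87, Pnmt at -4.80, Ddc at -3.07 and Th at -2.88 did. The other genes of these lists were not looked at in that fit.

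Differences within an array do not depend on the scaling between arrays, and were taken here between Csf1r and the other members. The log2 signal of Csf1r less that of Cd68 was -0.42, -0.40 and 0.07 on the saline arrays and 0.22, 0.53 and 0.54 on the LPS arrays. Csf1r therefore gained on Cd68 in every LPS array relative to every saline array, by 0.68 (exact permutation p = 0.1). Against Csf1 the gain was 0.46, again without overlap. The LPS values were all above the saline values in 2 of 9 such comparisons of Csf1r with the other members, beside 53.0% when Csf1r was set against each of 30363 other probes. The comparisons thus do not show that Csf1r moved apart from these members in particular. With the second probe of Csf1r it was 0 of 9, and as the share over all probes was not taken for that probe, this count is not read further. Csf1r and Mrc1 differed the other way by -0.67, with overlapping groups (exact permutation p = 0.2).

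The 8 members well above background throughout differed from one another over the arrays, with Cd68 highest on saline replicate 1, Lyz2 on saline replicate 2 and Csf1r on LPS replicate 3. Their mean profile, with each member centred on its own mean, was 0.00, 0.06 and -0.31 on the saline arrays and 0.20, 0.08 and -0.04 on the LPS arrays. Saline replicate 3 was the low array and LPS replicate 1 the high one. Among 10004 other genes well above background throughout, those most like this profile were Cyp2e1, S100a13, Taf9, Thg1l and Slirp, with root mean square differences over the 6 arrays of 0.0417, 0.0434, 0.0499, 0.0500 and 0.0557, where the median gene had 0.276. None of these genes is on the macrophage lists used here. The mean profile itself varies little, so genes that vary little also lie close to it. The median therefore does not show how particular the likeness is.

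The promoters of the members were searched for GAGGAA on both strands, the core of sites that PU.1 can bind, to see whether members that differed in response also differed in these letters. RefSeq promoter sequences on GRCr8 were held for 5 of the 10 genes, and 4 of the 5 had the letters within 250 bases upstream of the start, beside 23.3% of the 33469 promoters in the same table. The 4 were Csf1r, Mrc1, Cd68 and Lyz2. Stretches with up to 30 bases on either side of the matches are shown for these 4, of which Csf1r and Mrc1 had groups that did not overlap, 5′ to 3′ on the strand of the gene, with the match in capitals (TTCCTC is GAGGAA read on the other strand).
Csf1r, plus strand, chr18:56834129-56834319: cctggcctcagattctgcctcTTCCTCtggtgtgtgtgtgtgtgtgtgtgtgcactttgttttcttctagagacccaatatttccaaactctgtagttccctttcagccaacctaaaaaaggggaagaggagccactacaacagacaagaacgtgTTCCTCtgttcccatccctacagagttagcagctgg
Mrc1, plus strand, chr17:82157515-82157724: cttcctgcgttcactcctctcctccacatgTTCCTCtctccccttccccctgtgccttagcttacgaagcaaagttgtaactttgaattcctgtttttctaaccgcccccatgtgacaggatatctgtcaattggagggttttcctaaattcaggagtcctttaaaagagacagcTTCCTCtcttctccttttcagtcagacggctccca
Cd68, minus strand, chr10:54882442-54882498: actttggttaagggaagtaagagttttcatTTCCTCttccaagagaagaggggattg
Lyz2, minus strand, chr7:54798022-54798087: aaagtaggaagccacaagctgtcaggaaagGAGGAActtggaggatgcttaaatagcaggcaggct
The letters thus stood upstream in Csf1r and Mrc1, whose groups did not overlap by the brightest probe, and of the genes whose groups did, in Cd68 and Lyz2 but not in Cd163. No test was made over these 5 genes. A match describes the sequence and says nothing of binding.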

How the data were processed

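Ovarian RNA was measured on 6 single-colour Agilent arrays, grouped by the treatment and replicate number in the labels. The authors deposited the spot intensity values of Agilent Feature Extraction 10.5.1.1 per the file headers, and a table of the same intensity values, which differs from them by at most 0.497%. The labels name lumi without a version or role, and give biotin where the methods give Cy3. Here, flagged spots were dropped (0.322% to 1.73% of an array), the 75th percentile of each array was subtracted from the log2 processed signal, and spots of a probe were averaged. limma 3.58.1 in R 4.3.3 compared the treatments over 30367 probes with at least 2 arrays in each group, with Benjamini-Hochberg adjustment and two-sided p-values. A probe counted as well above background where at least 50% of its spots were. Single genes were also given an exact permutation test (scipy 1.17.1), whose smallest p here is 0.1. Of the probes, 17998 were named through RefSeq accessions on GRCr8, used for names and promoter sequences. A gene with several probes is given by its brightest. The procedure was tested on simulated data.

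The members and the gene lists were chosen with earlier results of these data known, so no test over a list was made. The named genes are all members with each probe and the 5 genes most like the members' mean profile. From the 18 other lists, up to 4 genes each are named that had an unadjusted p under 0.05 and were well above background on every array of either group. Lists with fewer than 2 such genes were filled to 2 with their brightest. Genes named outside this rule are marked as named after their values were seen, or are given for whether they were well above background. Whether the replicate numbers pair the samples across groups is not known, since the labels give the numbers no meaning. The deviations of same-numbered arrays from their group means correlated at 0.298, 0.215 and 0.254 over 30364 probes. Deviations from a mean of 3 arrays depend on one another, so these correlations do not settle it. Of the differently numbered arrays, LPS replicate 2 and saline replicate 3 correlated at 0.160, and LPS replicate 3 and saline replicate 2 at 0.068. The rest lay between -0.271 and -0.163. Alternatives covered background correction, scaling, the source of values, dim and flagged spots, the test, the slide row, the replicate block, the choice of probe and arrays left out. Row 1 holds LPS arrays only, so the row block fit has the difference of row 2. The comparison within slide row 2 was added after the data had been seen. Against saline replicate 1 alone, that array was assumed to vary like the LPS group. Within slide row 2, LPS replicate 1 was assumed to vary like the saline group. A call lost in either fit does not by itself show a smaller difference. The number of arrays limits the precision.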

Additional observations from a re-analysis of the deposited data

How the results depend on the processing

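The positive differences of Csf1r, of both probes of Fcer1g and of Mrc1 kept their direction under all alternatives run, with ranges of 0.26 to 0.89, 0.13 to 0.77, 0.54 to 1.07 and 0.18 to 1.56 (for Mrc1 leaving aside the fit without saline replicates 2 and 3), and no member passed at an adjusted p under 0.05 under any (lowest 0.167, highest 1.00 over the members' alternatives). With the replicate block, 2 members were again higher at an unadjusted p under 0.05, and this block changed no member's call. By the 2-fold criterion, 245 and 383 probes were higher and lower with it, beside 186 and 327 without it. Mrc1 and Cd163 were not well above background on saline replicate 1, so that their values without saline replicates 2 and 3 rest on a reading at background and are not given.

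The count of members higher at an unadjusted p under 0.05 was 2 with all arrays. It was 0 with normexp, 1 without background correction (Fcer1g, not Csf1r or Mrc1) and 1 with quantile normalization. An analysis of variance of the 2 groups, the test the methods name for data in general, gave 1. The slide row block fit gave 0, and the count ranged from 1 to 2 with single arrays left out. The median over the members, 0.09, was 0.47 without normalization between arrays, which moved the median of all probes from -0.04 to 0.34, 0.33 in the slide row block fit and within slide row 2, and 0.002 to 0.24 with single arrays left out. By the 2-fold criterion at an unadjusted p under 0.05, the probes higher in LPS numbered 186, and 2 with normexp, 0 without background correction, 118 with quantile normalization, 1003 without normalization, 100 in the analysis of variance, 1489 in the slide row block fit, 1521 within slide row 2, 494 without saline replicates 2 and 3 and 129 to 374 with single arrays left out. Those lower numbered 327, and 211 without background correction, 173 with quantile normalization, 188 with the filter on dim probes, 48 in the analysis of variance, 66 in the slide row block fit, 51 within slide row 2, 506 without saline replicates 2 and 3 and 81 to 757 with single arrays left out. At an adjusted p under 0.05, 0 probes passed in limma with all arrays and 0 in the analysis of variance, 5018 passed unadjusted in limma, and 290 passed adjusted without saline replicate 1, 5 in the slide row block fit and 1 within slide row 2.

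Signs turned only for member probes whose difference with all arrays was at most 0.26 in size, the largest being that of Aif1. The second probe of Csf1r was -0.0176 with normexp, -0.0299 without background correction, -0.0006 with quantile normalization and -0.17 without saline replicates 2 and 3, and -0.12 to 0.17 with single arrays left out. Spi1 was -0.0104 with normexp, -0.0341 without background correction and -0.0375 without saline replicates 2 and 3, and -0.0271 to 0.35 with single arrays left out. Cd68 and Cd163 were both 0.21 without normalization, and were 0.0427 and 0.0496 in the slide row block fit and within slide row 2; Cd163 was 0.44 without saline replicates 2 and 3 and -0.47 to 0.12 with single arrays left out. Aif1 was -0.0373 and its second probe -0.15 without saline replicates 2 and 3, the second probe being -0.12 to 0.36 with single arrays left out. With single arrays left out Csf1 was -0.0066 to 0.13, Lyz2 -0.10 to 0.29 and Tyrobp -0.0737 to 0.22. The cause was not tested.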
